A study of Mus musculus with 9 samples.

Results

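EGFP+ cells sorted from the craniofacial region (Cp, 2 arrays) and from the trunk (Tp, 3 arrays) of mouse embryos at E12.5 (embryonic day) were compared across all probes of an expression array. These 5 arrays are those of the whole series of 9 whose titles name craniofacial or trunk NCC. The other 4 are EGFP- cells of the same regions (Cn and Tn, 2 arrays each), which served to set the regional difference outside the crest beside that within it. All groups came from P0-Cre/Floxed-EGFP embryos, C57BL/6J mice crossed to ICR, in which Cre under the promoter of P0 (myelin protein zero, a Schwann cell gene) switches on EGFP in neural crest-derived cells. The mark stays on in all descendants of a labelled cell, so an EGFP+ sort at E12.5 can hold mesenchyme, neurons and glia side by side. The study describes a minor labelling of the notochord by this driver, and the heart was removed from its trunk dissections. Tp replicate 3 is absent from the study's own table of differential probes and was kept here with the other arrays. The study describes its array samples as biological duplicates. Whether the arrays came from separate litters is not given in the sources used here, so p-values measure only the spread between these arrays.

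The neural crest is an embryonic cell population that leaves the dorsal neural tube and migrates through the embryo. In the head it forms most of the skeleton and connective tissue of the face and jaws, as well as cranial sensory ganglia and glia. In the trunk it forms sensory and sympathetic ganglia, Schwann cells, adrenal chromaffin cells and pigment cells, but normally no skeleton. Homeobox genes of the Hox clusters are used along the body axis behind the front part of the head, and the crest that builds the jaws and face lies in front of their domain. In sorted bulk samples, a lower level of a gene cannot be told apart from fewer cells of the type that uses it.

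Each array was hybridised with 1 RNA sample labelled with Cy5 and gave a value for each of 23473 probes, scaled by the authors to a median of about 25 on every array. All levels below are log2 of these intensities, so that a difference of 1 is a doubling on the linear scale, and levels of different probes are not set against each other. Spots were at a median of 1.81 (Tp replicate 3) to 3.21 times the blank level, and 72.8% to 90.2% of the probes lay above the blank mean plus 2 SD. The arrays were scanned on 4 occasions. The first held replicate 1 of all 4 groups, the second Cp and Cn replicate 2, the third Tp and Tn replicate 2, and the fourth Tp replicate 3 alone. Names were taken from the study's own table, which names 306 probes (302 genes). The study selected those probes for differences on these arrays, so the share of named probes that changed is not independent evidence of any direction.

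The region separated the arrays more than replication did. The root mean square log2 distance over 23040 probes was 0.477 between the Cp arrays and 0.534 to 0.623 among the Tp arrays. Between a Cp and a Tp array it was 0.782 to 0.857. The first principal component held 58.0% of the variance of the 5 arrays, with Cp at -66.8 and -61.9 and Tp at 39.9, 45.4 and 43.4. The second held 20.2% and spread the Tp arrays from 46.0 (replicate 1) to -45.0 (replicate 3). By limma with Benjamini-Hochberg adjustment, 2015 of 23062 probes (8.74%) differed between Cp and Tp at an adjusted p under 0.05, and 915 were higher (3.97%) and 1100 lower (4.77%) in Cp. Without Cp replicate 1 the count was 1055 and without Cp replicate 2 it was 1077, which leaves a single Cp array assumed to vary like the other groups. When the ring around each spot was taken as background in place of the authors' processing, 86 probes passed (26 higher, 60 lower), of which 77 were among the 2015.

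The large differences lay mostly on the trunk side. Of the 2015 probes, 552 (2.39% of those tested) differed at least 4-fold, 166 higher and 386 lower in Cp. At least 16-fold apart were 9 higher and 40 lower. The median log2 difference was 1.42 among the probes called higher and -1.64 among those called lower, against 0.04 over all probes tested. The 2 groups did not overlap for 2014 of the 2015 called probes, while 7566 of 23048 probes with a value on all 5 arrays (32.8%) did not overlap. Names were held by 220 of the 2015 called probes, 43 higher and 177 lower in Cp, and by 167 of the 552. The remaining 385 of the 552 are unnamed here. Of the 306 named probes, 86 did not pass the test. The 306 had a median log2 difference of -1.61. They were selected by the study for differences on these arrays. They, and not all probes, are therefore the like background for the lists below.

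The same regional difference was read in 2 sets of arrays that share none. Replicate 1 of Cp and Tp came from the same scan occasion, and 670 probes (2.91% of 23048) differed at least 4-fold between them, 215 higher and 455 lower in Cp. Between Cp replicate 2 and the mean of Tp replicates 2 and 3, which came from 3 other occasions, the count was 606, with 185 higher and 421 lower. Both sets held 91 of the higher and 318 of the lower probes, which is 61.0% of the first set and 67.5% of the second. A single probe, unnamed here, was at least 4-fold apart in opposite directions. Of the 670 probes, 644 had the same sign in the other set. Across probes, which share arrays and are not replicates, Pearson's r was 0.676 and Spearman's rho 0.460. All 220 named probes that passed the test had the same sign in both sets, which the test itself draws on. With the ring as background, the first-scan pair had 149 probes at least 4-fold apart, the other set 88, and both held 9 of the higher and 29 of the lower probes.

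**Figure D1:**
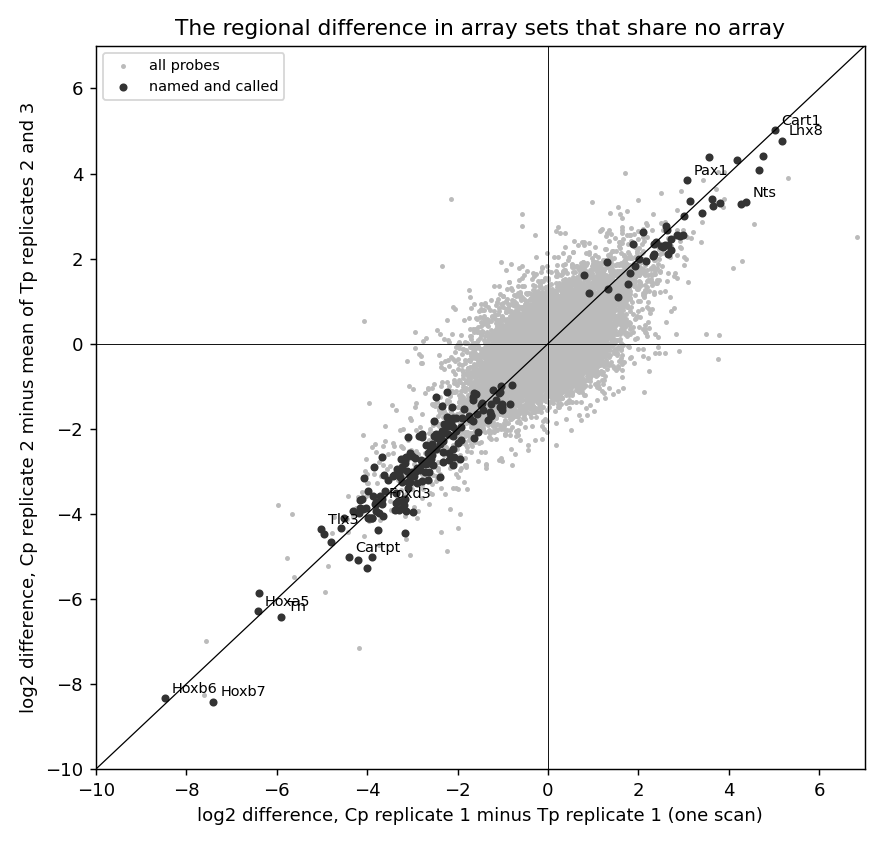
Each point is a probe; the x axis gives the log2 difference between Cp and Tp replicate 1, scanned together, and the y axis that between Cp replicate 2 and the mean of Tp replicates 2 and 3. Named probes that passed the test (black) lie near the line of equal values, from Hoxb6 at -8.47 and -8.34 to Lhx8 at 5.17 and 4.77, while the cloud of all probes (grey) gives r = 0.676.

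Transcription factors of craniofacial mesenchyme were mostly higher in Cp. Of 11 named probes of this list, 8 rose, 1 fell and 2 did not pass the test. The median log2 difference was 3.46, against -1.61 over all named probes and 0.04 over all probes tested. Lhx8, a LIM homeobox gene used in tooth and palate mesenchyme and in the forebrain, read 8.63 and 8.20 on the Cp arrays and 3.46, 3.63 and 3.23 on the Tp arrays. The groups lay far apart, with a 31.5-fold difference (log2 4.98, SE 0.28, limma adjusted p = 1.45e-06). Cart1 read 7.07 and 7.05 in Cp and 2.06, 2.08 and 1.98 in Tp, a 32.4-fold difference (SE 0.23, limma adjusted p = 2.8e-07). RefSeq gives the name Cart1 as a synonym of both Alx1, a homeobox gene of the facial mesenchyme, and Rab11fip3, so the gene behind this probe is not settled. Barx1, a homeobox gene of molar and stomach mesenchyme, read 8.82 and 8.33 in Cp and 5.17, 5.31 and 4.86 in Tp (11.0-fold, limma adjusted p = 7.48e-06).

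Of the paired box genes Pax7 and Pax1 were higher in Cp, and Pax8 did not pass (log2 -0.41, limma adjusted p = 0.493). Pax7, which marks early crest and muscle precursors, read 4.85 and 4.38 in Cp and was not above the blanks on any Tp array. It was 20.3-fold higher in Cp by the values used for Tp (limma adjusted p = 1.6e-06), which is not a lower bound. Pax1, a gene of the sclerotome and pharyngeal pouches, read 8.47 and 8.88 in Cp and 5.40, 5.16 and 4.92 in Tp (11.5-fold, limma adjusted p = 9.29e-06). Tcfap2c, an AP-2 factor of crest and surface ectoderm, was 3.69-fold higher and Tcfap2a, its relative, 4.85-fold lower in Cp. Of the distal-less genes of the jaw primordia, Dlx6 was 2.90-fold higher in Cp (limma adjusted p = 0.00216), while Dlx1 and Dlx2 did not pass. Dlx1 read 7.75 and 7.93 against 6.62, 7.06 and 6.83 (limma adjusted p = 0.0527). Dlx2 read 7.37 and 7.14 against 7.27, 6.60 and 6.51, with overlapping groups. Dlx1 passed in 4 of the other settings, among them the 5 EGFP+ arrays alone. Lhx8, Barx1 and Pax1 were the 3 of the 8 higher probes that passed with the ring as background.

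**Figure D2:**
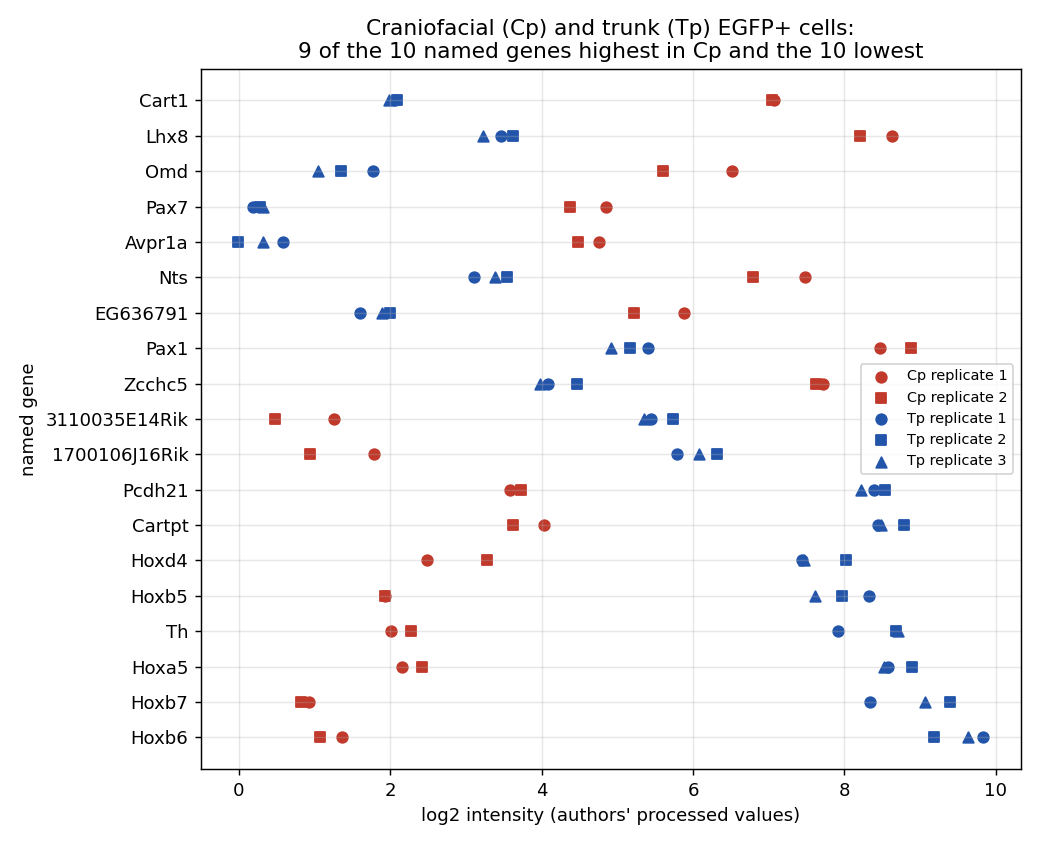
Log2 intensity on each of the 5 arrays for 9 of the 10 named genes highest in Cp and the 10 lowest among those that passed the test without overlap. Craniofacial points (red) lie right of the trunk points (blue) for the upper 9 genes and left of them for the lower 10, with Hoxb6 and Hoxb7 the farthest apart at -8.33 and -8.06.

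Genes of skeletal and connective tissue matrix and its signals were also mostly higher in Cp, with 10 of 15 named probes higher, 3 lower and 2 not passing, and a median log2 difference of 2.37. Omd (osteomodulin, a leucine-rich proteoglycan of bone matrix) read 6.52 and 5.60 in Cp and 1.77, 1.35 and 1.04 in Tp (25.5-fold, SE 0.32, limma adjusted p = 4e-06). Cpxm2, a secreted carboxypeptidase-like protein, read 6.18 and 6.15 in Cp and 3.18, 3.16 and 3.12 in Tp (8.07-fold, limma adjusted p = 8.33e-06). Mia1, a secreted protein of cartilage, was 6.83-fold, Chodl 6.55-fold and Crispld1 6.28-fold higher in Cp. In the other direction, C1qtnf3, a secreted protein of cartilage, read 3.02 and 2.55 in Cp and 5.83, 5.59 and 4.97 in Tp (6.40-fold lower, limma adjusted p = 0.000219). Gdf5, a signal of forming joints, read 4.41 and 4.36 in Cp and 4.10, 4.47 and 4.18 in Tp, with overlapping groups. Lama4, a laminin chain, had a log2 difference of -0.73 (limma adjusted p = 0.084) and passed at a pseudocount of 16, with the blank spots as background and with the scan as a random block. With the ring as background, 3 of the 10 higher probes and none of the 3 lower ones passed; 5 of the 15 were at an unadjusted p under 0.05 in that limma fit.

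Of 5 named probes of the Wnt list, 3 rose, 1 fell and 1 did not pass. Rspo2, a secreted amplifier of Wnt signalling, read 7.36 and 7.30 in Cp and 3.54, 4.02 and 3.98 in Tp (11.2-fold, limma adjusted p = 5.01e-06). Its receptor Lgr5 read 6.68 and 6.51 against 4.18, 4.21 and 4.23 (5.24-fold), and Dkk1, a secreted Wnt inhibitor, 7.74 and 7.34 against 5.21, 5.37 and 4.74 (5.41-fold). Celsr2, a cadherin of planar polarity, read 2.14 on both Cp arrays and 4.24, 4.21 and 3.98 in Tp, and Wnt8b differed by 0.21 on the log2 scale (limma adjusted p = 0.825). In limma with the ring as background 0 of the 5 passed and 4 were at an unadjusted p under 0.05.

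Among 7 named probes of neuropeptides and peptide receptors, 4 were higher and 3 lower in Cp. Nts, the precursor of neurotensin, read 7.48 and 6.79 in Cp and 3.10, 3.55 and 3.38 in Tp (13.8-fold, limma adjusted p = 6.47e-06). Avpr1a, a vasopressin receptor, read 4.76 and 4.47 in Cp and 0.58, -0.01 and 0.32 in Tp, where 1 of 3 arrays was above the blanks (20.0-fold, limma adjusted p = 2.37e-06). Penk1, the precursor of enkephalins, read 9.71 and 9.26 against 6.31, 6.07 and 6.30 (9.59-fold), and Ramp2, a partner of the adrenomedullin receptor, was 5.56-fold higher. The 3 lower probes were Cartpt, Ednrb and Gal, described with the trunk derivatives. S100a4, a calcium-binding protein of motile cells, read 6.14 and 5.67 in Cp and 3.01, 2.68 and 1.95 in Tp (10.3-fold, limma adjusted p = 3.34e-05). Zcchc5 was 11.3-fold and EG636791 (now Gm9866) 13.2-fold higher in Cp.

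**Figure D3:**
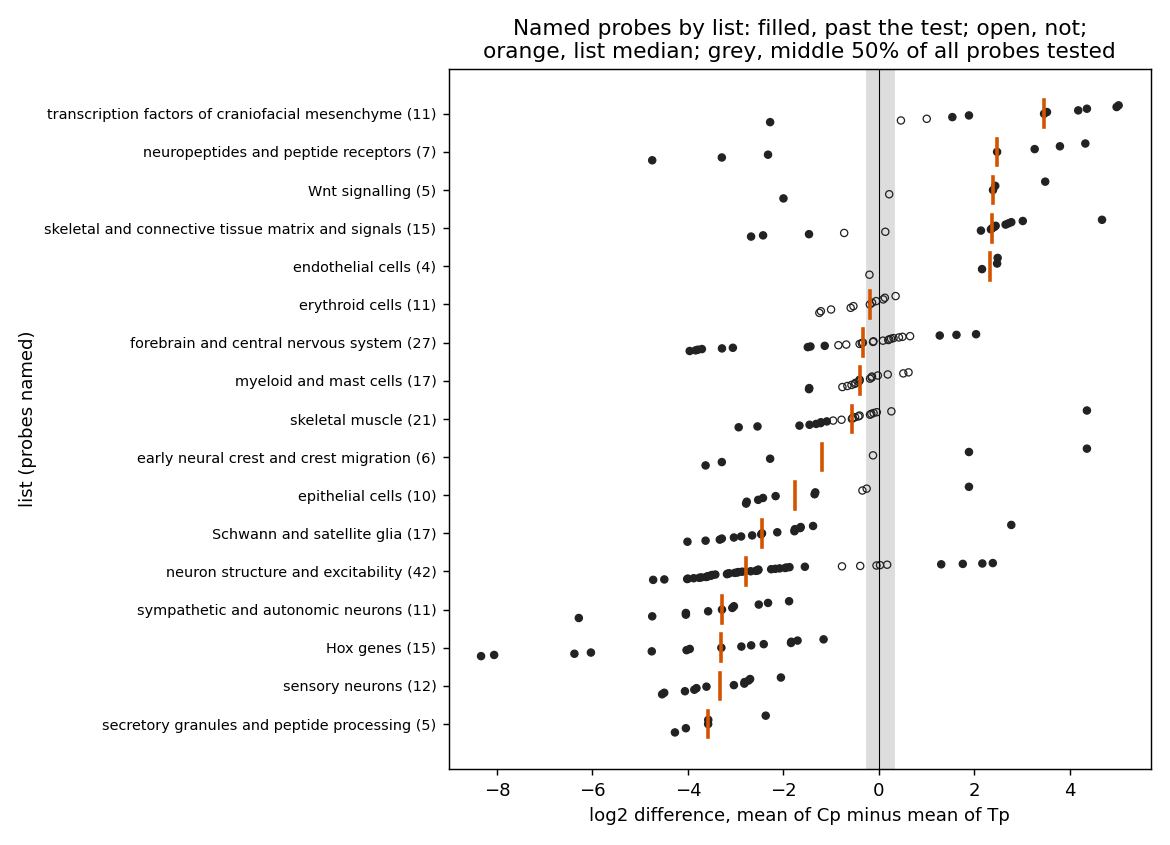
Each point is a named probe, placed by its log2 difference between Cp and Tp (x axis) and by list (y axis, with the number of named probes). The median over all 306 named probes is -1.61. Filled points passed the test, orange bars are list medians and the grey band holds the middle 50% of all probes tested (-0.25 to 0.32); the medians of the Hox, neuronal and glial lists lie left of the band and those of the craniofacial lists right of it, with single probes on the other side in all of these but the Hox, sensory, sympathetic and secretory granule lists.

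All 15 named Hox probes were lower in Cp and none overlapped. Their median log2 difference was -3.30, against -1.61 over all named probes and 0.04 over all probes tested. Hoxa7 was above the blanks on both Cp arrays, as were 86.1% and 84.2% of all probes. It read 6.21 and 6.01 in Cp, 8.40, 8.65 and 8.52 in Tp, and 6.22 and 6.08 in Cn. Whether its level in the head is a baseline of the probe was not tested. Hoxb6 read 1.36 and 1.07 in Cp and 9.84, 9.18 and 9.63 in Tp, the widest gap of any named probe (log2 -8.33, SE 0.27, limma adjusted p = 2.86e-08). Hoxb7 read 0.93 and 0.81 in Cp, where 1 of 2 arrays was above the blanks, and 8.33, 9.40 and 9.06 in Tp (267-fold lower). Hoxa5 was 83.2-fold, Hoxb5 65.5-fold, Hoxd4 27.1-fold and Hoxa10 16.3-fold lower in Cp. At the other end were Hoxb8 (log2 -1.16, limma adjusted p = 0.0113) and Hoxb3 (log2 -1.70). Hoxa2, which is used in the crest of the second pharyngeal arch, read 4.65 and 4.15 in Cp and 7.57, 7.36 and 6.92 in Tp. It too was above the blanks on both Cp arrays and read much the same in Cn, at 4.73 and 4.40. Taking the ring as background, 3 of the 15 passed, all lower, and without either Cp array 14 passed.

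Genes of the glial lineage were mostly higher in Tp, while those of early crest went both ways. Of 6 named probes of the early crest list, 2 were higher (Pax7 and Tcfap2c, both already given), 3 lower and 1 did not pass (Gbx2, log2 -0.12). Foxd3, a forkhead factor kept in undifferentiated crest and glial precursors, read 3.72 and 3.09 in Cp and 7.40, 6.96 and 6.76 in Tp (12.4-fold lower, SE 0.31, limma adjusted p = 1.44e-05). Ednrb, the endothelin receptor needed by migrating crest, read 6.34 and 6.48 against 9.96, 9.82 and 9.33 (9.79-fold lower, limma adjusted p = 1.01e-05). Of 17 named probes of Schwann and satellite glia, 16 were lower and 1 higher in Cp, with a median of -2.45. The higher one was Mia1, the secreted cartilage protein given above, which stands on both lists.

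Lgi4, a secreted protein needed for peripheral myelination, read 3.97 and 3.66 in Cp and 7.95, 7.80 and 7.72 in Tp (16.1-fold lower, limma adjusted p = 2.47e-06). Fabp7, a fatty acid-binding protein of glial precursors, was bright everywhere and still higher in Tp, at 10.86 and 10.63 against 13.69, 13.67 and 13.55 (7.40-fold). Mal, a myelin proteolipid, was 10.1-fold and Gfra3, the artemin receptor, 8.21-fold lower in Cp. The summed intensity of the 17 probes was 2862 and 2472 on the Cp arrays and 15083 to 16699 on the Tp arrays. On the EGFP- arrays it was 2563 to 3569. Fabp7 made up most of that sum in every group, and without it the other 16 probes summed to 999 and 884 in Cp, 3089 to 3592 in Tp, 463 and 474 in Cn and 1097 and 1249 in Tn. Of the 16 lower probes 4 passed with the ring as background, and without Cp replicate 1 it was 13.

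Genes of peripheral neurons were lower in Cp. All 12 named probes of sensory neurons and all 11 of sympathetic and autonomic neurons were lower in Cp, with medians of -3.33 and -3.29 and no overlap. Th (tyrosine hydroxylase, the rate-limiting enzyme of catecholamine synthesis) read 2.02 and 2.28 in Cp and 7.91, 8.68 and 8.70 in Tp, 78.0-fold lower (log2 -6.29, SE 0.31, limma adjusted p = 4.02e-07). Cartpt, the precursor of a peptide of neurons and endocrine cells, read 4.04 and 3.62 against 8.45, 8.79 and 8.49 (26.9-fold lower, limma adjusted p = 1.01e-06). Chrna3, the nicotinic receptor subunit of autonomic ganglia, was not above the blanks on either Cp array and read 5.10, 5.32 and 5.26 in Tp. It was 16.5-fold lower by the values used for Cp, which is not a lower bound. Chga (chromogranin A) was 16.5-fold and Resp18 11.9-fold lower in Cp. Insm1, a zinc finger factor of neuroendocrine differentiation, was 9.77-fold and Gal, the precursor of galanin, 5.01-fold lower.

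The sensory genes named here were transcription factors. Tlx3, a homeobox gene of sensory and dorsal horn neurons, read 4.80 and 4.54 in Cp and 9.83, 9.03 and 8.78 in Tp (23.3-fold lower, limma adjusted p = 4.66e-06). Neurod4 (22.6-fold), Neurod1 (16.7-fold) and Nhlh2 (12.2-fold), all bHLH factors of neuronal differentiation, were lower in Cp. Neurod1 was nonetheless well above the blanks in Cp, at 7.93 and 7.25 against 11.70, 11.63 and 11.65. Isl1, a LIM homeobox gene of sensory, sympathetic and motor neurons, read 6.05 and 5.86 in Cp and 9.80, 9.90 and 9.77 in Tp (14.6-fold lower, limma adjusted p = 2.37e-06). With the ring as background 4 of the 12 sensory and 4 of the 11 sympathetic probes passed.

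General neuronal genes followed, with 33 of 42 named probes lower, 4 higher and 5 not passing (median -2.78). Pcdh21 (now Cdhr1), a cadherin-related protein, read 3.59 and 3.72 in Cp and 8.39, 8.54 and 8.22 in Tp (26.5-fold lower, limma adjusted p = 4.03e-07). Rgs4, a regulator of G protein signalling, was 22.6-fold, Dusp26 16.2-fold and Ap3b2 13.6-fold lower in Cp. Elavl4, an RNA-binding protein of neurons, had 2 probes, 14.7-fold and 12.3-fold lower. All 5 named probes of secretory granules were lower, from Scg3 at 19.3-fold (4.33 and 4.61 against 8.85, 8.99 and 8.40) to Pcsk2, a prohormone convertase, at 5.18-fold. The summed intensity of the 42 neuronal probes was 3805 and 3145 in Cp, 20214 to 25173 in Tp, 16613 and 17312 in Cn and 9832 and 10128 in Tn. By this sum the Cp arrays were the lowest of all 9, below the EGFP- cells of their own region. The sum is weighted towards its brightest probes, and the study selected these probes for differences on these arrays. It is therefore no general measure of neuronal content. Of the 33 lower probes 9 passed with the ring as background.

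The promoters of called genes were searched for short motifs as a description of what these genes share in sequence. RefSeq promoters (GRCm38.p6, 250 bases before to 50 after the start site) were found for 27 of the 43 genes called higher and 124 of the 172 called lower in Cp. Of 8 motifs searched on both strands, chosen with the values known, the cyclic AMP response element TGACGTCA was held by 7 of the 124 (5.65%), none of the 27 and 507 of all 27025 promoters (1.88%). The E-box CAGCTG was held by 34 of the 124 (27.4%), 2 of the 27 (7.41%) and 16.1% of all promoters. The homeodomain core TAATTA was in 1.61%, 3.70% and 5.31%, and TGATNNAT, a form of the Hox-Pbx site, in 5.65%, 7.41% and 9.04% in the same order. The other 4 motifs were CACGTG (4.84%, 3.70% and 7.24%), CAGATG (16.9%, 14.8% and 17.2%), TATAAA (7.26%, 18.5% and 14.2%) and GGGCGG (48.4%, 51.9% and 35.9%). A match is a run of letters and not a tested site, and neighbouring matches can overlap. The promoters of 5 genes described here are shown, with capitals marking TGACGTCA in the trunk genes Th, Cartpt and Foxd3 and CAGCTG in the trunk gene Isl1 and the craniofacial gene Nts.
Th (chr7:142899946-142900245, minus strand): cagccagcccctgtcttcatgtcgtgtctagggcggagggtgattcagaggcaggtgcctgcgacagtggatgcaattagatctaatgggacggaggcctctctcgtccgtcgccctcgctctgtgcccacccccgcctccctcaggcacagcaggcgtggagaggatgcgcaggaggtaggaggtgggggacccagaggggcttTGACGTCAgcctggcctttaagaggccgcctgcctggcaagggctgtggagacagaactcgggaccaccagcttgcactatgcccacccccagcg
Cartpt (chr13:99900634-99900933, minus strand): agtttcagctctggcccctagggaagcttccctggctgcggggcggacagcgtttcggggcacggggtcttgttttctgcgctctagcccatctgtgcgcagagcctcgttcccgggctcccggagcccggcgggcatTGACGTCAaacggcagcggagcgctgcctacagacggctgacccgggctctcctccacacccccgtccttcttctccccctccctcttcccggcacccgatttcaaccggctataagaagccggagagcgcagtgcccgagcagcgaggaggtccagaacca
Foxd3 (chr4:99656049-99656348, plus strand): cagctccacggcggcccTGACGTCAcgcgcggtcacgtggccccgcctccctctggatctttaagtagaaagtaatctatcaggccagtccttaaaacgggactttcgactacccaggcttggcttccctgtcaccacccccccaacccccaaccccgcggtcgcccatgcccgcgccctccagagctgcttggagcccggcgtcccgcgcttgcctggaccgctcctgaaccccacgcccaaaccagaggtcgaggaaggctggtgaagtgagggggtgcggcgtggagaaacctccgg
Isl1 (chr13:116309639-116309938, minus strand): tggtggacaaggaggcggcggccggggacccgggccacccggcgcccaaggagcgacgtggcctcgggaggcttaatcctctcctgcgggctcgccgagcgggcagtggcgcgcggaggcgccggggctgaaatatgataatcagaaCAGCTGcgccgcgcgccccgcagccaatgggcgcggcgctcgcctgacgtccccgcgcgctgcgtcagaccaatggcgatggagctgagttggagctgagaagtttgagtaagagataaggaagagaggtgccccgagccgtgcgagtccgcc
Nts (chr10:102490369-102490668, minus strand): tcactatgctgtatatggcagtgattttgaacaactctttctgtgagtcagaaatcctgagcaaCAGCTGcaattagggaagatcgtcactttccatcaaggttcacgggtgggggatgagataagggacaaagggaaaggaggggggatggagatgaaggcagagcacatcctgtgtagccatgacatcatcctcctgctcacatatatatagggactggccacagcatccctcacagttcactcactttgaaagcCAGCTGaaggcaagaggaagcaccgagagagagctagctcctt
In Th the match began 45 bases before the start site, and Nts held 2 matches.

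The summed markers of blood and muscle cells were lower in both EGFP+ groups than in the unlabelled cells, though not every probe was. The summed intensity of 11 erythroid probes was 931 to 1685 in Cp and 1724 to 2598 in Tp, against 99927 to 136443 in the EGFP- arrays. By limma 0 of the 11 passed the test and 3 had an unadjusted p under 0.05. Of 17 named myeloid and mast cell probes 2 passed, C1qb (2.75-fold lower in Cp) and Cxcl4 (2.76-fold, not above the blanks in Cp). The sums were 99.3 to 145 in the EGFP+ groups and 732 to 1412 in the EGFP- arrays. Both calls were lost with the blank spots as background. Of 21 skeletal muscle probes 8 were lower, 1 higher (Pax7, which is also on the crest list) and 12 did not pass, and the sums were 187 and 227 in Cp, 321 to 443 in Tp and 1865 to 4510 in the EGFP- arrays. Among the 8 lower were both probes of Dmn (5.83-fold and 7.66-fold), Myoz1 (3.17-fold), Tnnc1 (2.74-fold) and Mapk12 (2.49-fold). Both Dmn probes were brighter on every Tp array, at 3.79 to 4.48, than on any EGFP- array, at 1.15 to 2.56. Without Cp replicate 1 the number lower was 4, and without Cp replicate 2 it was 2.

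Most of the few named endothelial probes were higher in Cp, and most of the named epithelial probes were lower. Of 4 named endothelial probes 3 were higher in Cp: Sox18 read 4.77 and 4.56 against 2.67, 2.43 and 1.43, Fli1 4.69 and 4.86 against 2.81, 2.54 and 2.49, and Ramp2 was given above. The remaining one, Thsd1, had overlapping groups. All 4 summed to 194 and 161 in Cp and 37.1 to 58.2 in Tp, against 372 to 595 on the EGFP- arrays. The 3 probes called higher in Cp summed to 174 and 146 in Cp and 23.8 to 33.8 in Tp. On the EGFP- arrays those 3, chosen for being higher in Cp than in Tp, summed to 79.9 to 130. Thsd1 was brighter on the EGFP- arrays, at 8.12 to 9.00 against 3.74 to 4.62 on the EGFP+ arrays. Of 10 epithelial probes 7 were lower in Cp, 1 higher (Tcfap2c) and 2 did not pass, with Tpd52 (6.88-fold), Vil2 (6.82-fold), Wwc1 (5.78-fold) and Myo5b (5.39-fold) the lowest. Of 27 probes of forebrain and central nervous system, 9 were lower, 3 higher and 15 did not pass (median -0.34). The lower ones included St18 (15.6-fold), Dll3 (14.3-fold), Lhx9 (13.9-fold) and Igfbpl1 (13.1-fold), and Hes6 (8.34-fold), which read 9.34 and 9.22 in Cp and 12.38, 12.42 and 12.21 in Tp. The part of any unlabelled or admixed cell in the difference between Cp and Tp was not tested.

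**Figure D4:**
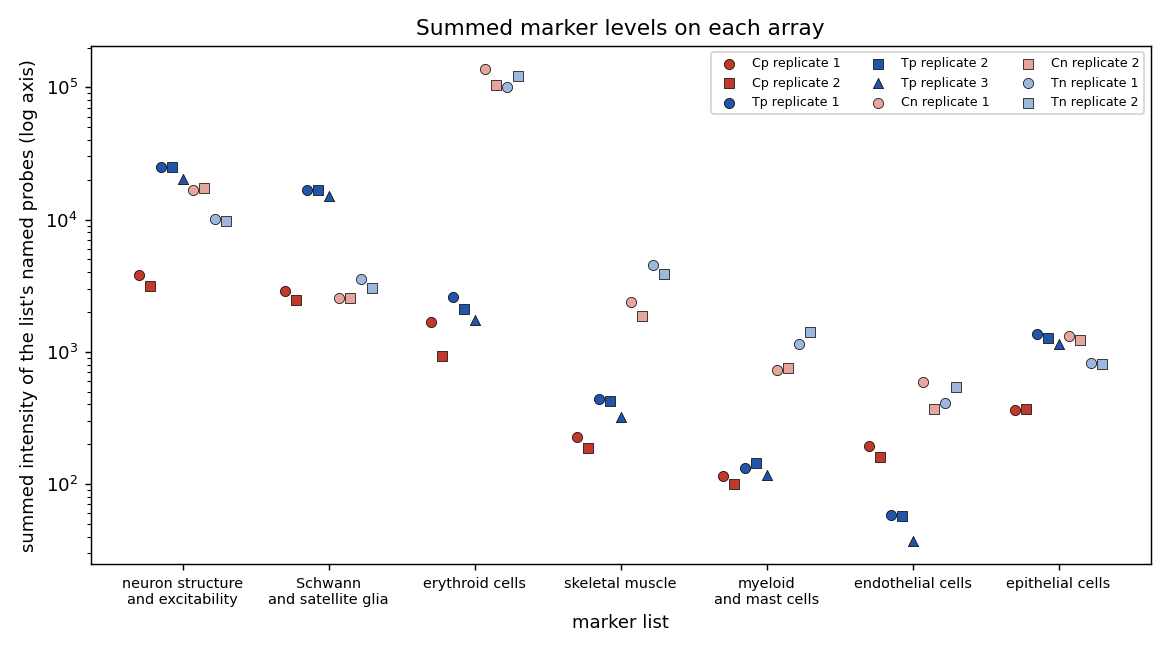
Summed intensity (log axis) of the named probes of 7 marker lists on each of the 9 arrays, coloured by group and shaped by replicate. Erythroid sums lie between 931 and 2598 on the EGFP+ arrays and from 99927 upward on the EGFP- arrays, and neuronal and glial sums are lower on both Cp arrays than on the Tp arrays.

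The regional difference in crest cells was then set beside that in EGFP- cells of the same regions. The difference of the differences, (Cp minus Tp) minus (Cn minus Tn), passed by limma for 1402 of 23062 probes (6.08%), 706 of them positive, and 1086 of the 1402 also differed between Cp and Tp. Among the named probes it passed for 192 of 306. Of the 15 Hox probes 0 passed and 3 had an unadjusted p under 0.05: Hoxb6 differed by -8.33 between Cp and Tp and by -7.62 between Cn and Tn, and Hoxa5 by -6.38 and -6.92. A p above the threshold does not show that the shifts are equal, and for Hoxa10 they were -4.03 and -5.40 (limma adjusted p = 0.0574). By contrast the interaction passed for 11 of 12 sensory, 10 of 11 sympathetic and 36 of 42 neuronal probes. For the glial probes it passed for 11 of 17, near the share of all named probes. Th differed by -6.29 between the EGFP+ groups and by -0.14 between the EGFP- groups (interaction -6.15, limma adjusted p = 5.79e-05).

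Craniofacial genes divided between these patterns. Lhx8 was higher in the head in EGFP- cells too, at 7.48 and 7.49 in Cn against 2.65 and 3.38 in Tn (interaction 0.50, limma adjusted p = 0.638). Nts (3.79 and 3.59) likewise had no interaction past the threshold (limma adjusted p = 0.874). Barx1 (3.46 and 2.18) did not pass either, but its interaction was 1.27 (SE 0.38, limma adjusted p = 0.0818), which does not show equal differences. For Pax1 the direction turned: it was 3.52 higher in Cp than Tp and -1.84 in Cn relative to Tn, on the log2 scale (interaction 5.36, limma adjusted p = 5.79e-05). Mia1 turned likewise (2.77 and -1.77, interaction 4.54). Pax7 had an interaction of 5.32, while its difference of -0.97 between Cn and Tn did not pass. Dlx1 and Dlx2, which did not pass between Cp and Tp, were 4.42 and 4.06 higher in Cn than in Tn (interactions -3.42 and -3.60, limma adjusted p = 0.000725 and 0.000398). The interaction passed for 45 probes with the ring as background.

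**Figure D5:**
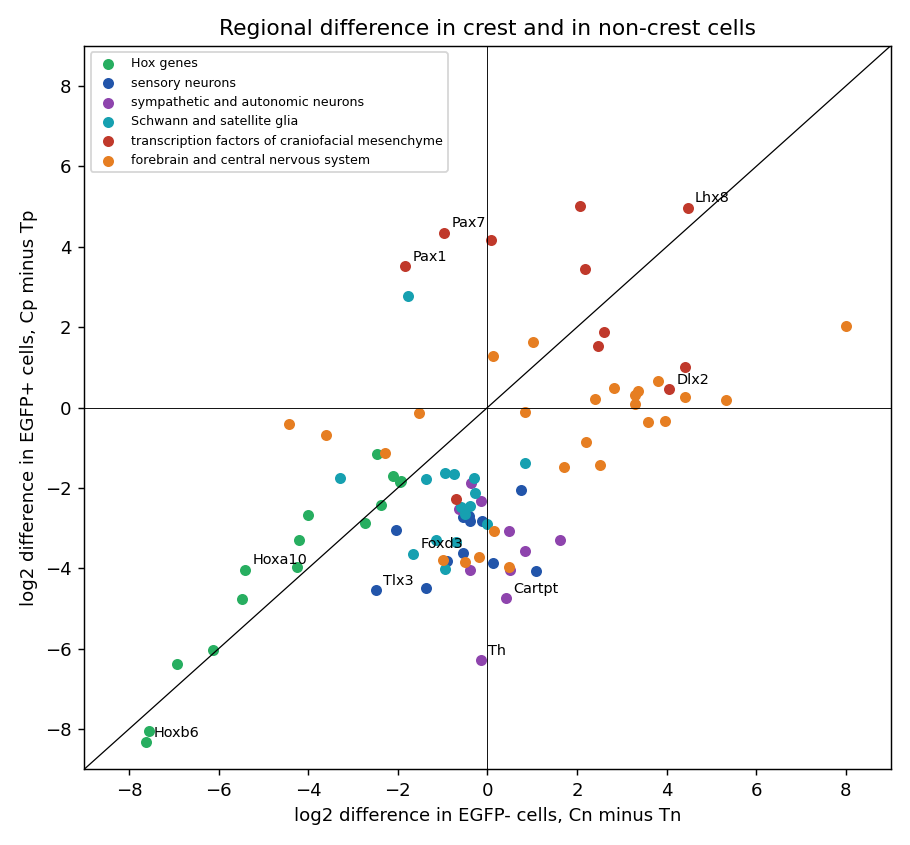
Log2 difference between head and trunk in EGFP- cells (x axis) against that in EGFP+ cells (y axis) for the named probes of 6 lists; the line marks equal differences. Hox probes (green) lie near the line down to Hoxb6, sensory and sympathetic probes lie low, with x from -2.49 to 1.08 and from -2.03 to 1.63, and Pax7 and Pax1 lie in the upper left.

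The spread within the groups is given as a description, since the study selected the named probes for group differences on these arrays. The Cp arrays differed by a median of 0.23 and at most 1.34 on the log2 scale over the 306 named probes, and the Tp arrays spanned a median of 0.45. Over all probes, 27 were at least 4-fold apart between the Cp arrays, against 41 to 115 between pairs of Tp arrays and 633 to 744 between a Cp and a Tp array. Tp replicate 3 was at least 4-fold from both other Tp arrays, in the same direction, at 11 probes, none of them named. Without it, 1735 probes passed the test (631 higher, 1104 lower), and the 15 Hox, 12 sensory, 11 sympathetic and 16 glial probes were all lower still. Single genes in 2 against 3 arrays cannot reach below p = 0.10 in an exact permutation test, so each p given here borrows the spread across all probes through limma.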

How the data were processed

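RNA of the sorted cells was labelled with Cy5 and hybridised to 3D-Gene 1-colour arrays, 1 sample per array. The deposited processed intensity values rise in proportion to each spot after the blank level is taken off, with the median of every array brought to about 25, and cells of spots near or under the blanks are empty. The deposited scanner files hold the intensity of each spot and of its ring. The labels and the study's methods name different RNA kits, and the scanner software is not given in the sources used here.

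Log2 of the processed values was taken, with empty cells set to the array's lowest value. The 14 spots marked bad and 9 empty cells whose spot lay over 10 SD above the blanks were treated as missing instead. Probes listed on at least 2 of 9 arrays (23062 of 23473) entered 1 limma fit (version 3.58.1, R 4.3.3) over 4 groups with 5 residual degrees of freedom. The contrasts were Cp minus Tp and its difference from Cn minus Tn, adjusted by Benjamini-Hochberg over all probes. The fit was tested on simulated data. A probe not above the blank mean plus 2 SD on any array of a group has no measured level there. Its fold sets the brighter mean against its own values, raised where lower to the array's lowest level above that limit. Such a fold is not a lower bound.

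Only names of the study's table were used: 306 of its 347 probes, 301 with a current RefSeq symbol, 44 under another name. No other column of it was used, and probes outside it are unnamed here. Genes in the text are the 10 highest and 10 lowest differences without overlap, up to 6 called members per list, uncalled members where at most 3, and genes the study's text names. Some genes the rule names are not reported here. Gal, Dlx6, Hoxa2, Hoxa7, Hoxb3 and Hoxb8 were added after their values were seen. The groups, lists and members were chosen with earlier results of these data known.

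Alternatives were quantile normalization, a pseudocount of 16, no filter, probes listed on all 9 arrays, scanner signals with the ring or the blanks as background (normexp, offset 50, quantile), the 5 EGFP+ arrays alone, replicate and scan blocks, and leaving out each EGFP+ array.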

Additional observations from a re-analysis of the deposited data

Results flagged for a closer look

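The difference between head and trunk was not the same in EGFP+ and EGFP- cells for 1402 probes in the limma test of the difference itself. Among the 10 highest and 10 lowest named genes, the 12 given here passed that test. Positive values mean a larger head-over-trunk difference in EGFP+ cells, and on the log2 scale they were 5.36 for Pax1, 5.32 for Pax7, 3.86 for Zcchc5, 3.57 for Omd, 3.34 for Avpr1a, 2.95 for Cart1 and 2.65 for EG636791. Negative values mean that head relative to trunk was lower in EGFP+ than in EGFP- cells. They were -6.15 for Th, -5.17 for Cartpt, -4.77 for 3110035E14Rik, -4.04 for Pcdh21 and -3.48 for 1700106J16Rik. In all of these the trunk was higher in EGFP+ cells, and the regional difference was smaller in size in EGFP- cells. The probe of 3110035E14Rik was not above the blanks on either Cp array (1.25 and 0.47), so it has no measured level there. Of the rest, Lhx8, Nts and the Hox genes Hoxb5, Hoxb6, Hoxb7, Hoxa5 and Hoxd4 did not pass, which does not show equal differences.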

How the results depend on the processing

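The background decides most counts. With the ring around each spot as background, 86 probes passed between Cp and Tp, 22 of them at least 4-fold, 149 were at least 4-fold apart in the first-scan pair and 45 passed the interaction. The ring followed the spot on every array (correlation of logs across probes 0.909 to 0.985). With the blank spots as background and an offset of 50, the 4-fold counts were 106 and 117 in the pair, and with a pseudocount of 16 they were 200 and 228, while 2222 and 1826 probes passed the test in those settings. Both additions narrow folds of dim probes by construction. With the scan as a random block 3226 probes passed, and 3323 for the interaction; with the scan as a fixed block 2235 passed the interaction. Tp replicate 3 is alone in its scan and in its replicate number, so those fixed blocks take it out of the contrast. Leaving out each EGFP+ array in turn gave 1055 to 1864 probes, 542 to 590 at least 4-fold, and 798 to 1423 for the interaction. With a replicate block 2228 probes passed (846 higher, 1382 lower) and 1633 for the interaction. Replicate numbers pair no samples by the labels: the deviations of replicate 1 correlated across probes at 0.07 to 0.42 between groups, in a scan that they share.

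Of 1332 values of the 89 probes of genes that the rule names, over 15 alternatives, 1247 kept their side and direction, 68 lost the call (60 with the ring), 7 gained it and 10 changed sign, none of them called. Over all 306 named probes, 281 kept their sign with the ring and 294 to 306 in the other settings that tested all of them. Of the 220 called, 218 kept it with the ring (the exceptions were Lhx1 and BC030477, named after their values were seen), and all tested did in the other settings. Among the 89, the sign changes were Gbx2 (0.042), Dlx2 (-0.12) and Ap1m2 (0.0069) with the ring, Thsd1 without Cp replicate 2 (0.035; range -0.48 to 0.035 over the arrays left out), Plek2 (0.17) with the scan as a fixed block, and Wnt8b with the blank spots (-0.0063), the replicate block (-0.095), the fixed scan block (-0.022), without Cp replicate 1 (-0.018) and without Tp replicate 3 (-0.095; range -0.095 to 0.45). The number of arrays and the signal over the blanks limit the precision.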
